A study of Homo sapiens with 2 samples.

Results

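The nuclear-encoded subunits of respiratory complex I were examined as mRNAs that came down with LRPPRC in RNA immunoprecipitation (RIP) from A549 cells. They were taken by gene name, as 36 structural subunits of the NDUFA, NDUFB, NDUFC, NDUFS and NDUFV series, out of 16770 named genes with a value in the table, and all 36 had a value above 0 in both libraries. A549 is a human lung adenocarcinoma line, here of WT genotype, and no treatment is given for the cells. Lysate was incubated with 2 μg of anti-LRPPRC antibody, and RNA from beads was sequenced in 2 libraries of 1 condition, replicates 1 and 2. The paper calls these replicates biological, while the series description calls them technical, so the spread between them may be technical only.

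Values are FPKM, fragments scaled to transcript length in kilobases and to sequencing depth, which allows levels of different genes to be set side by side per length. The input RNA and the IgG precipitate were not analysed here, so a level is the amount of a transcript in the precipitate and not its enrichment over the cell. With a single condition, no test between conditions was possible, and no test between genes was made. The epithelial keratins KRT8 and KRT18 had 337 and 51.1 FPKM, AKR1B10, an enzyme abundant in this line, had 32.2, and EPCAM and CDH1 had 0.430 and 1.33. Of 8 markers of blood, endothelial, fibroblast, red and liver cells, the 5 with a value were between 0.0402 and 1.36 FPKM.

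Complex I, the NADH:ubiquinone oxidoreductase, is the entry point of electrons from NADH into the mitochondrial respiratory chain. Its peripheral arm, in the matrix, oxidizes NADH and passes electrons along iron-sulfur clusters to ubiquinone, and its membrane arm pumps protons. The core of the membrane arm is encoded by mitochondrial DNA, while the core of the peripheral arm and all supernumerary subunits are made from nuclear genes in the cytosol and imported. LRPPRC is best known for stabilizing mRNAs inside mitochondria, and it is also found in the cytoplasm. The study followed oxidative phosphorylation beside the cell cycle, which is the reason to ask how much subunit mRNA was in the LRPPRC precipitate.

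Most complex I subunit mRNAs had a mean below 10 FPKM in LRPPRC RIP, and they differed widely among themselves. The median over the 36 was 3.71 FPKM, with quartiles of 2.32 and 8.93, against a median of 2.48 over all named genes. NDUFA2 and NDUFAB1, 2 of 36 (5.56%), had a mean above FPKM 30, the threshold the study set for potential targets of LRPPRC. Of all named genes 8.46% passed it, a share not far from that of the subunits, and the difference was not tested. Another 7 had a mean between 10 and 30 FPKM, 6 between 5 and 10, 12 between 2 and 5, 5 between 1 and 2, and 4 were below 1. A floor of 1 FPKM in both libraries left 29 of the 36 and 10441 named genes, of which 13.6% were above 30. The median was 5.52 FPKM for those 29 and 6.81 for those genes. Of the 36, 25 had a mean above the median of all named genes, and 11 were above the median of the genes past the floor. Those 11 are out of all 36, of which 7 did not pass the floor themselves. In replicate 1 the subunits took 0.157% of all FPKM, and in replicate 2 they took 0.149%.

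The subunits are present in near-equal numbers in the assembled enzyme, but the means of their mRNAs spanned 154-fold, from NDUFA2 at 76.2 ± 1.44 FPKM (SD, n = 2) to NDUFB6 at 0.494 ± 0.0141 (SD, n = 2). NDUFA2 stood apart at the top. It was 2.38 times the next subunit by mean, and its lower library was 2.22 times the higher library of NDUFAB1. NDUFA2 alone held 25.4% of the FPKM summed over the subunits, and the highest 7 held 62.7%. Without NDUFA2, the span from NDUFAB1 to NDUFB6 was 64.8-fold. Of the 35 pairs of neighbours in the order of means, 20 overlapped in their 2 libraries and 15 did not. NDUFA2, NDUFAB1 and the pair of NDUFA3 and NDUFB10 followed each other without overlap, whereas from NDUFS4 down to NDUFA13 each subunit overlapped the next.

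Among the 6 core subunits of the peripheral arm analysed here, which carry the flavin and the iron-sulfur clusters or line the quinone site, levels ran from 2.58 to 15.8 FPKM with a median of 5.57. NDUFV1, which binds NADH and the flavin, was at 16.5 FPKM in replicate 1, with 15.2 in replicate 2. NDUFS1, the largest subunit, with several of the iron-sulfur clusters, had 14.3 and 12.5. These NADH-side subunits were the highest of the core, and their libraries did not overlap with each other or with the rest of it. NDUFV2, an iron-sulfur partner of NDUFV1, had 6.78 FPKM and 6.70. NDUFS3, of the part of the arm near quinone, had 4.30 and 4.50. NDUFS7 and NDUFS8, which hold the clusters closest to ubiquinone, had 3.17 and 4.13 FPKM, and 2.28 and 2.89, and were lowest in the core. None of the 6 core subunits was above FPKM 30.

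The supernumerary subunits of the peripheral arm, which surround the core and take part in its stability, had a median of 3.77 FPKM over 9 genes. NDUFA2, a small thioredoxin-like subunit of the NADH-oxidizing module, reached 77.2 FPKM in replicate 1, with 75.2 in replicate 2. It was the exception in its group, since the next was at 5.83. NDUFS6, a zinc-binding subunit, had 6.10 and 5.56 FPKM. NDUFA6, a protein of the LYR family that docks acyl carrier protein, had 5.55 and 5.49. NDUFV3, beside the flavin subunits, had 5.42 and 3.76, the largest ratio between libraries in this group for a subunit above 2 FPKM. NDUFS4, whose loss is a known cause of Leigh syndrome, had 3.66 and 3.88 FPKM. NDUFA9, a member of the short-chain dehydrogenase family at the junction of the arms, had 3.51 and 3.27, and NDUFA12, a relative of the assembly factor NDUFAF2, had 3.61 and 2.99. The libraries of NDUFA9 and NDUFA12 overlapped, and those of NDUFS4 were just above both. NDUFA5 had 0.947 and 1.14 FPKM and NDUFA7 had 1.25 and 0.617, so each was below 1 FPKM in a library.

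In the proximal part of the membrane arm, next to the mitochondrially encoded ND1 and ND2 proteins, the median was 2.96 FPKM over 9 genes, and none was above 30. NDUFA3, a small single-pass membrane subunit, was at 17.9 FPKM in replicate 1, with 19.2 in replicate 2. NDUFC1, another small membrane subunit, had 14.3 and 12.8. NDUFS5, a disulfide-rich subunit of the intermembrane space, had 11.7 and 9.86, and NDUFA10, of the nucleoside kinase family, had 12.3 and 9.02. These 4 were above all others of the group in both libraries. The other 5 were below 4 FPKM. NDUFC2 had 3.17 and 2.76 FPKM, and NDUFA8, also disulfide-rich, had 2.43 and 2.53. NDUFA13, known as well under the name GRIM19 for a role in cell death, had 2.444 and 2.438. NDUFA11 had 1.90 and 1.99, and NDUFA1, encoded on the X chromosome, had 1.39 and 0.899, the lowest of the group.

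In the distal part of the membrane arm, around ND4 and ND5, the 12 genes had a median of 3.55 FPKM and included the second and the last of the whole order. NDUFAB1 was at 33.8 FPKM in replicate 1, with 30.2 in replicate 2, just above the threshold in both. It encodes the mitochondrial acyl carrier protein, which also serves lipoic acid synthesis and iron-sulfur cluster assembly and thus has work outside complex I. NDUFAB1 was counted in this group alone, although NDUFA6 of the peripheral arm also docks its protein. The closest subunit below the threshold was NDUFA3, at 18.5 ± 0.884 FPKM (SD, n = 2). NDUFB10, a disulfide-rich subunit, had 19.0 and 17.5 FPKM. NDUFB4 had 8.61 and 8.11, and NDUFB9, the LYR protein that holds acyl carrier protein in this arm, had 7.62 and 7.68. NDUFB7, facing the intermembrane space, had 5.97 and 5.28. These 5 were above the other 7 of the group in both libraries. NDUFB8 had 3.94 and 3.26 FPKM and NDUFB1, the smallest of the group by coding length, had 3.77 and 3.22. NDUFB2 had 0.962 and 1.84, and NDUFB3 had 1.28 and 1.08. The lowest of the group were NDUFB11, encoded on the X chromosome, with 0.993 and 0.955 FPKM, NDUFB5, with 0.951 and 0.952, and NDUFB6, with 0.484 and 0.504. The ranges of all 4 structural groups overlapped widely. Medians were 5.57 FPKM for the 6 core subunits and 3.55 for the 30 supernumerary ones, a difference that was not tested.

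The 2 libraries gave similar levels for most subunits. The median coefficient of variation over the 36 was 7.33%, and the median absolute log2 ratio of the libraries, on the log2(FPKM + 1) scale, was 0.122, against 0.0543 over the named genes with at least 1 FPKM in both. Of the 36, 24 were higher in replicate 1 and 12 in replicate 2, and 54.8% of all named genes above 0 in both libraries were higher in replicate 1. A difference of more than 1.5 times was seen for 3 subunits, NDUFA7, NDUFB2 and NDUFA1, against 13.2% of all named genes above 0 in both. These 3 had means of at most 1.40 FPKM, and NDUFB2 went in the other direction from NDUFA7 and NDUFA1. In that range of level, from NDUFB6 to FPKM 2, they were 3 of 9 subunits (33.3%), and 7.41% of named genes differed by so much. Those named genes were not matched for length, and NDUFA7, NDUFB2 and NDUFA1 have short reference transcripts of 580, 465 and 421 bases. Among the 15 subunits with a mean above 5 FPKM the largest ratio was 1.36, for NDUFA10.

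At a given level, the median spread between libraries was higher for the subunits than for all named genes. Among short transcripts it was near that of named genes, and it was higher for the few long subunit mRNAs. In the class from 2 to 20 FPKM, the median coefficient of variation was 6.65% for 25 subunits and 3.36% for 6824 named genes. For genes of this class with a reference transcript under 1000 bases it was 6.21% for 18 subunits and 6.07% for 317 named genes. For those of 1000 bases or more it was 9.80% for 7 subunits, from 0.727% to 25.6%, and 3.29% for 6443 named genes. These differences were not tested.

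Most complex I subunit mRNAs are short, and their level did not follow their length. The reference transcript had a median length of 684.5 bases over the 36, against 3562 over the named genes with at least 1 FPKM in both libraries. It ranged from 317 bases in NDUFB1 to 11660 in NDUFS1, of which 9371 are 3′ UTR. Over the 36 subunits, which share their libraries, Spearman's rho of length and mean FPKM was 0.14, and Pearson's r on log2 scales was 0.0103. Spearman's rho was 0.185 for GC content, which ran from 34.6% in NDUFA5 to 66.9% in NDUFS7, and -0.0201 for the length of the 3′ UTR. The 26 subunits under 1000 bases had a median of 3.71 FPKM and included both the highest, NDUFA2, and NDUFA7, at 0.935. The 10 longer ones had a median of 3.99 and ran from NDUFB6 to NDUFV1.

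Beside other genes with short mRNAs, the short subunits had a slightly lower median. Of the subunits under 1000 bases, 22 had at least 1 FPKM in both libraries, with a median of 5.01, and the 538 named genes of that kind had a median of 5.81. Above FPKM 30 were 2 of these 22 subunits (9.09%) and 14.5% of the 538 genes. The order changed when FPKM was weighted by the length of the transcript, a rough measure of fragments rather than of molecules. NDUFS1 came first with 156 FPKM × kb, NDUFA10 followed with 51.7 and NDUFA2 with 49.4. NDUFA9 was 4 in that order and 22 by FPKM. The lengths are from GENCODE 44 and not from the authors' annotation, and the products are approximate for that reason.

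On GRCh38 the genes of the highest subunits are spread over the genome. NDUFA2 (ENSG00000131495.9) lies on chromosome 5 from 140638740 to 140647771, on the minus strand, with 3 exons in a reference transcript of 649 bases. NDUFAB1 (ENSG00000004779.10) lies on chromosome 16 from 23581014 to 23596316, also on the minus strand, with 5 exons. The lowest, NDUFB6 (ENSG00000165264.11), lies on chromosome 9 from 32553001 to 32573184 on the minus strand, with 4 exons.

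Some levels may depend on how reads were assigned where genes share sequence. Of the 36, 14 overlap exons of another gene in the reference transcripts, 9 on the same strand and 7 on the opposite strand. In NDUFA2, 120 of 649 bases lie opposite exons of TMCO6, a gene on the other strand with 1.75 FPKM in replicate 1, and 1.84 in replicate 2. Both values are far below those of NDUFA2. In NDUFA3, 150 bases lie opposite TFPT, which had 2.70 and 2.63 FPKM. Shared bases on the same strand made up 77.9% of the transcript in NDUFA7, 72.0% in NDUFB8, 62.8% in NDUFA13 and 53.6% in NDUFA11, in each case with an unnamed protein-coding gene model. The joined gene NDUFC2-KCTD14 shares 339 bases with NDUFC2 and was listed at 0 and 0.154 FPKM. The library kit keeps the strand, but the strand setting of the counting is not stated by the sources used here, and the part of these overlaps in the levels was not tested.

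For 5 of the 36, the genome holds a near-identical copy of the coding sequence, with 95% identity or more across no less than 50% of its length. NDUFV2 has a processed pseudogene, NDUFV2P1, on chromosome 19 with 98.1% identity over 693 aligned bases. NDUFA5 has its closest copy on chromosome 16 (97.7%), NDUFB1 on chromosome 3 (96.0%), NDUFB3 on chromosome 14 (95.9%) and NDUFB4 on chromosome 4 (95.9%). NDUFS5, with 94.7% on chromosome 17, was just short of that identity. The 5 had a median of 3.49 FPKM, from 1.04 to 8.36. The other 31 had a median of 3.77 FPKM, from 0.494 for NDUFB6 to 76.2 for NDUFA2. The part of the copies in the levels of the 5 was not tested. NDUFA2 and NDUFAB1 had no such copy. The sequences of NDUFV2 and NDUFB1 show which bases separate the subunit from its copy in the parts printed. Capitals mark the bases that differ. The NDUFV2 stretch is from base 75 to 224 of the coding sequence (reference transcript), and the copy is chr19:53224497-53224646 of GRCh38, minus strand, with 1 difference in 150 bases.
NDUFV2: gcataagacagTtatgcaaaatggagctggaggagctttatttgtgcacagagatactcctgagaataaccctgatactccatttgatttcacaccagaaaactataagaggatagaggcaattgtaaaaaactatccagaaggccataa
NDUFV2 copy: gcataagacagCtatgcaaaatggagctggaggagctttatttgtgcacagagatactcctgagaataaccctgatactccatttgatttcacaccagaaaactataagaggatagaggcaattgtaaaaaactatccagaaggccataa
NDUFB1 is given from base 1 to 174, and its copy is chr3:48181550-48181723, plus strand, with 7 differences in 174 bases.
NDUFB1: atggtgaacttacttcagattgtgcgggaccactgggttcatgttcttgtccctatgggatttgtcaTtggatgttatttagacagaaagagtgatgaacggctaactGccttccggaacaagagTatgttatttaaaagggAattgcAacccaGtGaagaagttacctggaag
NDUFB1 copy: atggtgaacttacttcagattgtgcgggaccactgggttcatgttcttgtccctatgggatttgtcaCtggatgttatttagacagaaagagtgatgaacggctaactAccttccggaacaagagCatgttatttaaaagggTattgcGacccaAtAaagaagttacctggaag
Over most of the NDUFV2 stretch the sequences are the same letter for letter, so a read from that part could belong to either. Over the whole alignment of NDUFV2, 680 of 693 bases are identical, so other parts hold more differences. The closest copies of NDUFA5, NDUFB1, NDUFB3 and NDUFB4 have a lower identity than that of NDUFV2. How reads of these 5 subunits were assigned was not examined, and their values are uncertain to an extent that is not known.

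The other mRNAs of complex I and of the respiratory chain give a scale for these levels. The subunits of complex I encoded by mitochondrial DNA, which LRPPRC meets in the organelle itself, had a median of 49.9 FPKM over the 6 with a value, 13.5 times that of the nuclear-encoded subunits. MT-ND4 had 125 ± 1.01 FPKM (SD, n = 2) and MT-ND1 had 73.4 ± 0.758 (SD, n = 2), while MT-ND6, at 32.3, and MT-ND3, at 12.7, were lowest. Of the 6, 5 were above FPKM 30 and, by mean, above every nuclear-encoded subunit but NDUFA2, and 7 nuclear-encoded subunits were above MT-ND3. These mRNAs sit in many copies per cell, and input levels were not analysed here.

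The 20 complex I assembly factors, which build the enzyme without staying in it, resembled the subunits, with a median of 3.29 FPKM and none above 30. The highest were DMAC2, at 23.2 ± 0.122 FPKM (SD, n = 2), and NDUFAF3, at 21.2 ± 2.72 (SD, n = 2). TMEM186 and TMEM126A were lowest, at 0.450 and 0.509.

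Nuclear-encoded subunits of complexes II to V had a median of 11.3 FPKM over 39 genes, and 9 (23.1%) were above FPKM 30. Of these 39, 30 were above the median of the complex I subunits, and 7 of the 36 complex I subunits were above the median of the 39. By complex, the numbers above FPKM 30 were 2 of 4 for complex II, 0 of 9 for complex III, 2 of 11 for complex IV and 5 of 15 for complex V, beside the 2 of 36 for complex I. Complex II was led by SDHB, an iron-sulfur subunit of succinate dehydrogenase, at 123 ± 2.12 FPKM (SD, n = 2), and SDHA at 51.6, with SDHD at 23.4 and SDHC at 5.41. In complex III, UQCRC1 and CYC1 were highest, at 17.4 and 16.6 FPKM, and UQCRQ and UQCRB lowest, at 4.57 and 1.59. Complex IV was led by COX7C and COX6A1, at 66.7 and 34.7, with COX7A2 and COX7B lowest, at 1.67 and 1.64. Complex V was led by ATP5MC2 and ATP5F1B, at 691 and 109, with ATP5MC3 and ATP5F1E lowest, at 2.67 and 0.407. Low and high members thus stood side by side in complexes II, IV and V as they did in complex I, and the differences between complexes were not tested.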

How the data were processed

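RNA from LRPPRC RIP of A549 cells was sequenced in 2 libraries made with a stranded total RNA kit (10 ng of RNA in the paper's methods, 250 pg to 10 ng in the labels). The deposited values are FPKM for each gene in each library, without pooling replicates. By the paper's methods, adapters were removed with cutadapt 1.18 and reads were aligned to GRCh38 with HISAT2 2.1.0. Quantification was with StringTie 1.3.3b against Ensembl release 101, again by the paper's methods. FPKM divides by transcript length, so it rests on the transcript model. The table has 21262 rows, of which 4460 are genes added by assembly and 32 repeat a name, none of them a subunit. The FPKM of all rows added up to 196627 (replicate 1) and 194839 (replicate 2).

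Depth is unknown. In 3267 named genes of low level (mean under 0.3 FPKM, above 0 in both), no log2 ratio between libraries was common to more than 51 (1.56%) within 0.02, so the values gave no steps of whole reads, and no interval or floor was computed. No gene had the same value above 0 in both libraries.

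Means, SDs, ranks, counts above FPKM 30 and log2 ratios (pseudocount 1, genes with at least 1 FPKM in both libraries as background) were computed with Python 3.11.15, pandas 2.3.3, numpy 2.4.6 and scipy 1.17.1 and drawn with matplotlib 3.10.9. The functions were tested on simulated data. A repeated name was represented by its higher row. Lengths, exons and positions are those of the canonical transcript in GENCODE 44 on GRCh38, which was matched for 16428 of 16770 names. Coding sequences were searched in the genome with blastn 2.17.0 (word size 16, at least 90% identity). All 36 subunits are named, with the 2 highest and 2 lowest genes of each neighbouring list. The subunits and lists were chosen with earlier results of these data known. The 4 structural groups follow the known architecture of the enzyme. No test was run, since there is 1 condition. Alternatives were thresholds of FPKM 20 and 50, the threshold in both libraries, single libraries, summed rows, TPM, other backgrounds, pseudocounts of 0.1 and 0.01 and multiplication by length. Neither input nor IgG RNA was analysed here. Some genes are listed in the deposited values by older names, and whether Ensembl release 101 held these names was not checked. Among those named here, DMAC2 is listed as ATP5SL, ATP5MC2 as ATP5G2, ATP5F1B as ATP5B, ATP5MC3 as ATP5G3 and ATP5F1E as ATP5E.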

Additional observations from a re-analysis of the deposited data

How the results depend on the processing

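The number of complex I subunits above FPKM 30 was 2 in either library, in both, at FPKM 20 and with rows of a name summed, and it was 1 at FPKM 50, where only NDUFA2 was left. The median of 3.71 FPKM was 3.82 or 3.85 with a single library and 19.0 in TPM, where only the unit differs. The median of all 36 subunits stood at the 57.3 percentile of all named genes. It stood at 31.4 of named genes with at least 1 FPKM in both libraries, and at 39.2 of those with a transcript under 1000 bases. The last 2 compare unlike sets, since 7 of the 36 did not pass that floor. The 39.2 also sets long and short subunits against short genes. For the 29 subunits past the floor, the median of 5.52 FPKM was that of NDUFA6, at the 43.5 percentile of named genes past it. The share of the subunits in the sum was 0.0596% with FPKM multiplied by length. So multiplied, in FPKM × kb, the group medians were 4.86 for the core, 5.74 for the supernumerary peripheral arm, 5.34 for the proximal and 2.73 for the distal membrane arm, so the core was no longer highest. With a single library the median of the supernumerary peripheral arm was 3.66 or 3.76 FPKM and that of complex V 9.50 or 9.54. With 2 libraries, the level of a subunit in a single library lies within their spread by construction, so leaving out a library says nothing about the stability of single levels. No paired analysis was possible because both libraries belong to the same condition. The depth is unknown, so the precision of values near 1 FPKM cannot be stated.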
